A study of Mus musculus with 6 samples.

Results

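The genes described here are 5 that mark the guanylyl cyclase D neurons of the mouse nose and a neighbouring cyclic GMP neuron type: Gucy2d, Pde2a, Cnga3, Car2 and Gucy1b2. They were listed by name, with earlier results of these data known, and each was looked up among the transcript clusters (1 summarised signal for the exons of a gene) that the array's annotation gives to a single gene. Of the 5 genes, 4 had such a cluster, out of 14807 genes measured in the table. Gucy2d was not analysed here, so the defining enzyme of these neurons has no value, and the label of the set could not be checked against it.

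Total RNA came from dissected olfactory epithelium, the sensory lining of the nose, of mouse embryos at ED18.5 (embryonic day), with 3 arrays from Emx2 homozygous wildtype and 3 from Emx2 knockout embryos. Emx2 encodes a homeodomain transcription factor. Every array measured a pool of 3 animals (9 animals per genotype), and differences between animals within a pool were averaged. The labels name neither the strain nor the form of the knockout allele. Values are log2 RMA signals, on which a difference of 1 is a doubling.

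Most olfactory neurons signal through cyclic AMP: an odorant receptor activates the G protein Gnal, the cyclase Adcy3 makes cyclic AMP, and the channel Cnga2 opens. Guanylyl cyclase D neurons, called necklace neurons for the ring of glomeruli in which their axons end, use cyclic GMP instead. In them Gucy2d makes cyclic GMP, the cone-type channel Cnga3 opens on it, the cyclic GMP-stimulated phosphodiesterase Pde2a degrades cyclic nucleotides, and carbonic anhydrase II (Car2) turns carbon dioxide into bicarbonate, which stimulates the cyclase. They respond to the peptides guanylin and uroguanylin and carry Ms4a proteins in place of odorant receptors. Gucy1b2, a subunit of soluble guanylyl cyclase, marks another small set of neurons in the main olfactory epithelium, which carry the channel Trpc2 and are known for sensing low oxygen. Pde2a is also made in blood vessels and brain, and Car2 in osteoclasts, red cells and many epithelia, so signal from dissected tissue is not that of necklace neurons alone.

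The stretch upstream of Gucy1b2 is shown because this gene had the largest difference of the 4. It is RefSeq sequence of build GRCm38.p6, chr14:62456290-62456539 on the minus strand, the 250 bases before the annotated start, written 5′ to 3′.
Gucy1b2 upstream: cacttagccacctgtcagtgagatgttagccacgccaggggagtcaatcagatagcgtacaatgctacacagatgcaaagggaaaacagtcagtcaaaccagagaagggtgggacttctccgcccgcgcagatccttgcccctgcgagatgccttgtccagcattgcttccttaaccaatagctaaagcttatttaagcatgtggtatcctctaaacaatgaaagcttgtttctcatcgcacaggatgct
The core of the Olf1/EBF site, searched as TCCC and GGGA with NN between them, and the homeodomain core TAATTA each read the same on both strands, so 1 search covered both, and their letters do not allow matches of the pair to overlap. Neither occurred in this window, so it has no capitals, nor in the other 8 such windows of Gucy2d, Pde2a and Cnga3 (4 of the 5 genes matched the promoter table). Among 32851 windows of the same length, 0.779% held the first and 4.84% the second.

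The arrays were alike in scale, with medians between 7.64 and 7.73. Emx2 itself had a wildtype average of 8.44 ± 0.13 (SD, n = 3) and an average of 8.37 ± 0.03 (SD, n = 3) under the knockout label, a difference of -0.07 (limma adjusted p = 0.894). This cluster does not check the labels, because the sources used here do not say which of its probes lie in the deleted part. Directions rest on the labels, and the second group is therefore named by its label throughout. Omp, the standard marker of mature olfactory neurons, was at 11.22 to 12.51 across the 6 arrays, and Cyp2g1, an enzyme of the supporting cells, averaged 11.85 in wildtype arrays, both far above the array medians. Y-linked Eif2s3y was at 3.30 to 3.69 in 3 arrays and at 7.78 to 8.89 in the rest, which were wildtype replicate 2 with knockout replicates 2 and 3, so the sex of the pooled embryos differed between arrays. Nothing in the labels says whether pools came from separate litters.

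None of the 4 measured genes passed the test between genotypes (limma with Benjamini-Hochberg adjustment over 16661 clusters, adjusted p at or under 0.05). All 4 differences were negative, with the exception of Cnga3 at 0.04 when the clusters were quantile normalized again, and they had a median of -0.19 against -0.04 over all clusters. Of all 16661 clusters 10270 were negative as well. That count was 8427 with median centring and 6836 with quantile normalization again, so it depended on the scaling. Gucy1b2 stood apart in size, with a signal in the arrays labelled knockout 0.621 times that in wildtype, while the other 3 lay between 0.851 and 0.912 times. Over all clusters 2.04% were called, 1.90% lower and 0.144% higher, and 0 of the 4 genes were called in either direction. At an unadjusted p under 0.05 only Gucy1b2 was counted, where 10.1% of all clusters were.

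Gucy1b2 read 5.84, 5.57 and 6.05 in wildtype replicates 1, 2 and 3, and 5.29, 5.01 and 5.10 in the arrays labelled knockout. The groups did not overlap, and the gap between the lowest wildtype and the highest knockout array was small beside the 1.04 that parted the extremes. The difference was -0.69 (SE 0.14, 95% interval -1.03 to -0.34; limma adjusted p = 0.0811), which corresponds to a fold of 0.490 to 0.788 at the interval's ends. With 1 array left out the difference ranged from -0.82 to -0.57 and the adjusted p from 0.0515 to 0.265, so no such fit called it either. Its mean signal lay at the 19.2nd percentile of all clusters. The sources used here do not say how much of so low a signal is background, and what background does to the size of the difference was not tested.

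Car2, with the next largest difference, read 9.01, 9.06 and 8.95 in wildtype arrays, and 8.84, 8.55 and 8.92 in those labelled knockout. All wildtype arrays lay above all knockout arrays, but wildtype replicate 3 and knockout replicate 3 were nearly level, and knockout replicate 2 lay well below the rest. The difference was -0.23 (SE 0.11, 95% interval -0.50 to 0.04; limma adjusted p = 0.599). Without knockout replicate 2 it was -0.12.

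Pde2a read 7.61, 7.75 and 7.77 in wildtype arrays, and 7.63, 7.58 and 7.47 in those labelled knockout. The groups overlapped, since wildtype replicate 1 lay below knockout replicate 1. The difference was -0.15 (SE 0.09, 95% interval -0.37 to 0.06; limma adjusted p = 0.699).

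Cnga3, the channel subunit that cones and necklace neurons share, was dim, at the 13.7th percentile. It read 4.89, 5.03 and 5.03 in wildtype arrays, and 4.81, 4.86 and 4.89 in those labelled knockout. The groups were apart by less than 0.01, with wildtype replicate 1 and knockout replicate 3 almost equal. The difference was -0.13 (SE 0.08, 95% interval -0.33 to 0.06; limma adjusted p = 0.710).

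Together, 3 of the 4 genes had all arrays labelled knockout below all wildtype arrays, where 12.0% of all clusters did. For Pde2a, Cnga3 and Car2 the intervals run from -0.37 to 0.06, -0.33 to 0.06 and -0.50 to 0.04. These data thus neither show a fall down to those lower ends nor exclude it, and small rises lie within the intervals too.

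**Figure D1:**
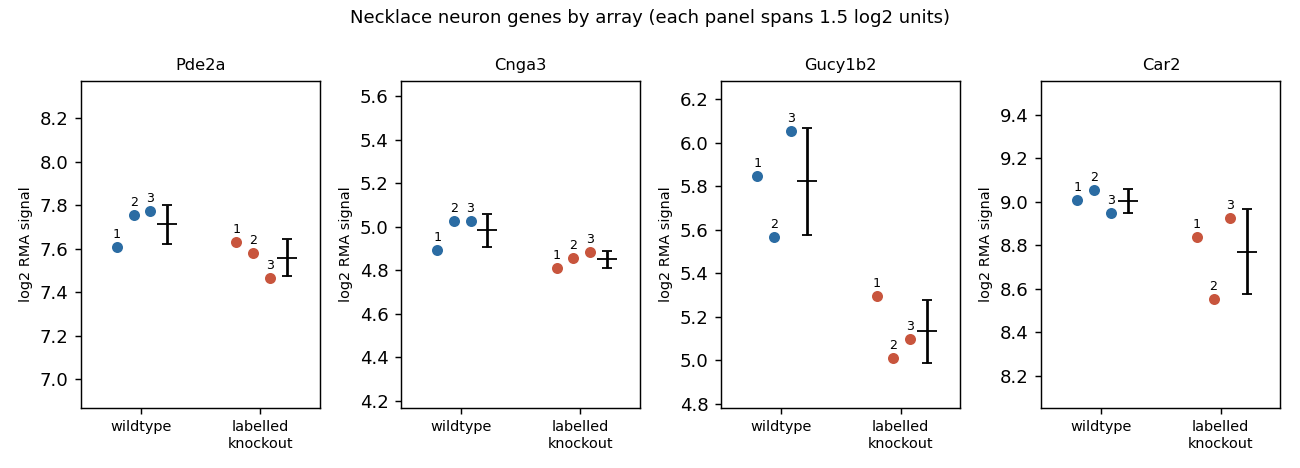
Log2 RMA signal (y axis) of Pde2a, Cnga3, Gucy1b2 and Car2 in each array, by genotype label (x axis); numbers are replicates, the horizontal mark is the mean and the bar 1 SD (n = 3). Every panel spans the same height in log2 units, and Gucy1b2, at 5.57 to 6.05 against 5.01 to 5.29, has the widest gap.

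Within the arrays of like Y-linked signal the signs were kept. Among the arrays with low signal (1 labelled knockout, 2 wildtype) the difference was -0.66 for Gucy1b2, -0.14 for Car2, -0.06 for Pde2a and -0.15 for Cnga3. Among those with high signal (2 labelled knockout, 1 wildtype) it was -0.51, -0.32, -0.23 and -0.16 in the same order. With so few arrays in each set these are values without a test.

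The necklace genes were next set against the cyclic AMP cascade of ordinary olfactory neurons. Of 8 measured genes of that cascade 7 were negative (6 under the other scalings, where Pde1c turned positive), with a median of -0.43. An unadjusted p under 0.05 was found for 5 of the 8 (limma), where 10.1% of all clusters had one. After adjustment 1 fell, where 1.90% of all clusters did. This was Ano2, the calcium-activated chloride channel of the cilia, by 1.21 (SE 0.16, limma adjusted p = 0.0145). Cnga2, the counterpart of Cnga3, differed by -0.69 (adjusted p = 0.220), Adcy3 by -0.48 (adjusted p = 0.211) and Pde4a by -0.43 (adjusted p = 0.179), none of them called. Pde1c, the calcium-stimulated phosphodiesterase of olfactory cilia, was level at -0.01, as was Cngb1, the modulatory channel subunit, at 0.02. Ano2 lost its call without wildtype replicate 1 (just past the threshold), knockout replicate 1 (adjusted p = 0.0657) or knockout replicate 3 (0.0716).

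The channel pair was compared within each array. Cnga3 minus Cnga2 read -5.24, -4.97 and -5.36 in wildtype arrays, and -4.52, -5.04 and -4.33 in those labelled knockout. Knockout replicate 2 fell among the wildtype values and the other knockout arrays lay above them. The contrast differed by 0.56 between genotypes (95% interval -0.11 to 1.23; exact two-sided permutation p = 0.2, adjusted p = 0.3 over 2 pairs). It therefore was not resolved that Cnga3 and Cnga2 moved differently. The interval excluded 0 without knockout replicate 2, at 0.76, and with all arrays when the clusters were quantile normalized again, at 0.68 (95% interval 0.05 to 1.31). Because Cnga2 itself averaged lower in the arrays labelled knockout, a gene without any change would also give a positive contrast. These intervals therefore do not set Cnga3, which was dim, apart from other genes. Pde2a minus Pde1c differed by -0.15 (95% interval -0.45 to 0.15; exact two-sided permutation p = 0.3, adjusted p = 0.3). It was -0.24 without wildtype replicate 1, with an interval of -0.45 to -0.03 that excluded 0, and -0.08 without wildtype replicate 2. Against Pde4a, the cyclic AMP phosphodiesterase of olfactory neuron cell bodies, the sign was the opposite, at 0.28 (95% interval -0.12 to 0.68). Pde4a itself averaged lower in the arrays labelled knockout, so a gene without any change would give that sign as well. The smallest p that 3 against 3 arrays can give is 0.1. The third planned pair, of Gucy2d with Adcy3, had no value for Gucy2d.

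**Figure D2:**
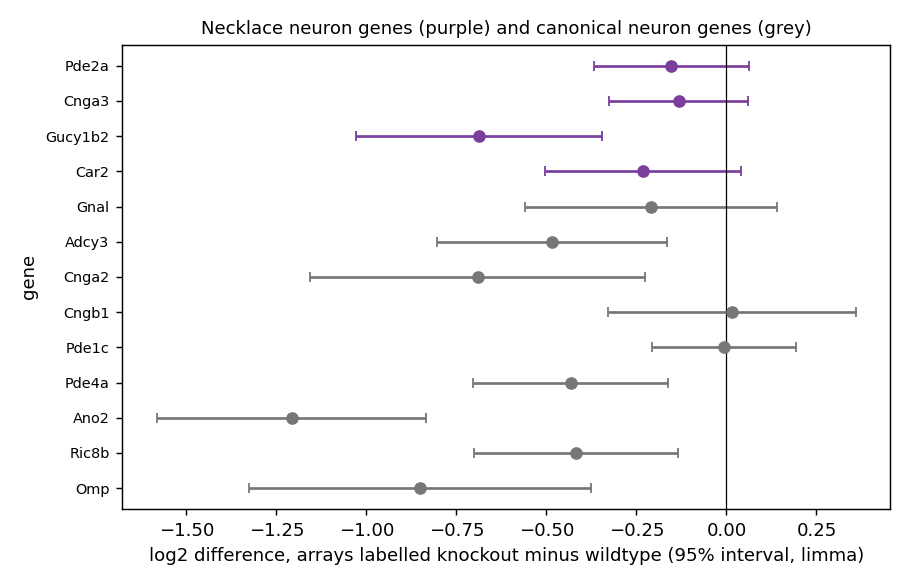
Log2 differences between the arrays labelled knockout and the wildtype arrays (x axis, with 95% limma intervals) for the 4 measured genes of the set (purple) and for genes of ordinary olfactory neurons (grey). Gucy1b2 at -0.69 lies beside Cnga2 at -0.69 and Omp at -0.85, and Pde2a, Cnga3 and Car2 lie between -0.23 and -0.13.

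Each gene was also read relative to 14 measured markers of mature olfactory neurons (of 15 listed), all 14 of them negative under every scaling tried, with a median of -0.64. Gnal, Adcy3, Cnga2, Ano2 and Ric8b stand in both this list and the cascade. Of the 14 markers, 3 fell (limma, adjusted over all clusters), where 1.90% of all clusters did. They were Ano2, Umodl1 by 1.07 and Rtp2, a chaperone that brings odorant receptors to the surface, by 1.09. An unadjusted p under 0.05 was found for 11 of the 14 (limma), where 10.1% of all clusters had one. For 11, all arrays labelled knockout lay below all wildtype arrays, where 12.0% of all clusters did. With 1 array left out, Umodl1 was called only without wildtype replicate 2, and Rtp2 only without wildtype replicate 2 or knockout replicate 2. The mean of the 14 markers lay between 9.70 and 10.04 in wildtype arrays and between 9.13 and 9.41 in those labelled knockout. In bulk tissue, fewer neurons and less RNA per neuron cannot be told apart.

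Relative to that mean, Pde2a read -2.36, -1.94 and -2.27 in wildtype arrays and -1.50, -1.83 and -1.72 in those labelled knockout. The groups did not overlap, and the difference was 0.51 (95% interval from the spread of the arrays 0.07 to 0.94; exact two-sided permutation p = 0.1, adjusted p = 0.2 over 4 genes). Cnga3 read -5.07, -4.67 and -5.01 against -4.32, -4.55 and -4.30, again without overlap, with a difference of 0.53 (95% interval 0.11 to 0.94; exact two-sided permutation p = 0.1, adjusted p = 0.2). Both intervals excluded 0, and both p-values are the smallest this design can give. With arrays paired by replicate number (the replicate block) both intervals held 0. They ran from -0.41 to 1.43 for Pde2a and from -0.35 to 1.40 for Cnga3. Because the marker mean was itself lower in the arrays labelled knockout, a gene without any change would also give a positive contrast. The median difference over all clusters was -0.04, and how many of them would lie apart in this way was not counted. These contrasts therefore do not set Pde2a and Cnga3 apart from other genes. With 1 array left out, the interval for Pde2a held 0 in 5 of 6 cases (all but wildtype replicate 2) and that for Cnga3 in 4 of 6 (all but wildtype replicate 2 and knockout replicate 2), with differences of 0.42 to 0.63 and 0.45 to 0.65. The low signal of Cnga3 given above stands beside this contrast, and its part in it was not tested. With Omp alone in place of the 14 markers the differences were 0.70 and 0.72, and both intervals reached just below 0.

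For Car2 the same contrast was 0.43 (95% interval -0.22 to 1.08; exact two-sided permutation p = 0.2, adjusted p = 0.267), with knockout replicate 2 at -0.85 among the wildtype values of -1.10 to -0.64. Without that array the contrast was 0.62, with an interval of 0.07 to 1.17. Gucy1b2 minus the marker mean read -4.12, -4.13 and -3.99 in wildtype arrays and -3.84, -4.40 and -4.09 in those labelled knockout. Here the knockout arrays lay on both sides of the wildtype arrays. The difference was -0.03 (95% interval -0.49 to 0.44; exact two-sided permutation p = 1), so a difference between Gucy1b2 and the mature markers was not resolved. Its sign depended on the array left out, from -0.16 to 0.12, and turned to 0.05 when the clusters were quantile normalized again.

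**Figure D3:**
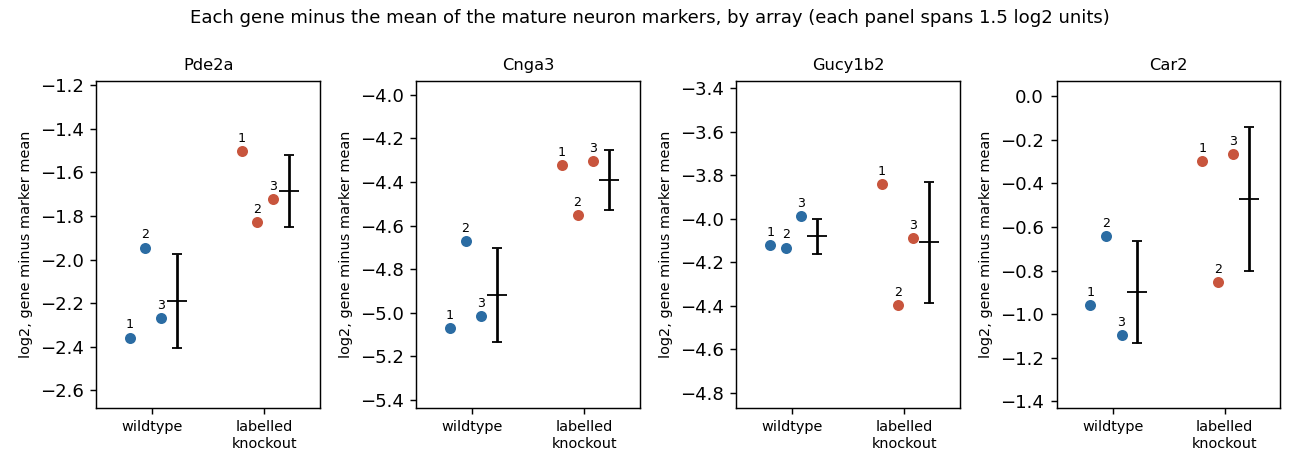
Signal of each gene minus the mean of 14 mature neuron markers (y axis, log2), in each array by genotype label (x axis); numbers are replicates, the horizontal mark is the mean and the bar 1 SD (n = 3). Pde2a and Cnga3 lie higher in all 3 arrays labelled knockout, and Gucy1b2 lies around the same mean of -4.08 and -4.11 in both genotypes. The marker mean was itself lower in the arrays labelled knockout, so a gene without any change would lie higher there too.

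Other cell types that make these genes were read from their markers. List medians close to 0 carry no direction: under the other scalings the endothelial median went from -0.04 to 0.00031 and the erythroid one from -0.04 to 0.10. Vascular endothelium, a source of Pde2a, had a median of -0.04 in 10 markers, and 0 were called (limma; 0 had an unadjusted p under 0.05), with Esam at -0.15 and Cdh5 at 0.11. The mean of these markers was 7.95 to 8.19 in wildtype arrays and 7.88 to 8.09 in those labelled knockout. Osteoclasts, the bone-resorbing cells that make Car2, had 8 of 10 markers positive and a median of 0.38. Of the 10, 5 had an unadjusted p under 0.05 (limma), all of them higher. Dcstamp, which osteoclast precursors need to fuse, rose by 0.54 (limma adjusted p = 0.0424), while Acp5 and Ctsk, the phosphatase and the protease of these cells, were at 0.79 and 0.71, not called. The call of Dcstamp was lost with any 1 array left out (adjusted p from 0.0532 to 0.173). Dcstamp was dim, at the 15.5th percentile of all clusters, and what background does to its difference was not tested. The osteoclast mean ran from 6.84 to 6.98 in wildtype arrays and from 7.16 to 7.39 in those labelled knockout, without overlap and opposite in sign to Car2; its part in the Car2 value was not tested. Without knockout replicate 2, the array lowest in Car2, the osteoclast median was 0.25 (0.38 with it). Calcr, the osteoclast calcitonin receptor, averaged 4.97.

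Red cell precursors, which also make Car2, had a median of -0.04 in 5 markers, with Kel at -0.11 and Alas2, the first enzyme of erythroid haem synthesis, at 0.20. Their mean was 5.93 to 6.33 in wildtype arrays and 6.05 to 6.29 in those labelled knockout, so the groups overlapped. Bone, cartilage and mesenchyme markers were positive in 11 of 11 with a median of 0.33, with Sp7 at 0.59 and Ibsp at 1.04, and 0 were called (limma; 5 had an unadjusted p under 0.05). Sustentacular cells had 7 of 8 positive (8 under the other scalings), with a median of 0.19 (0.12 without wildtype replicate 1 and 0.11 without knockout replicate 2), Muc2 at 0.50 and Cyp1a2 at 0.74, and 0 called (2 had an unadjusted p under 0.05). Their part in the lower neuronal signal was not tested.

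Microvillous cells and ionocytes had a median of 0.03 in 8 markers, with Il25 and Avil both at 0.07, and glia had a median of -0.02 in 6, with Mbp at 0.24 and Fabp7 at -0.45 (-0.19 without wildtype replicate 2, -0.29 without knockout replicate 1); neither list had a call. Among 8 brain neuron markers 7 were negative, with a median of -0.32 (-0.51 without wildtype replicate 1 and -0.12 without wildtype replicate 2), while the GABA-synthesising enzyme Gad2 rose by 0.98 (limma adjusted p = 0.0203). Its call was lost without any single array other than wildtype replicate 2 (highest adjusted p = 0.0888). Neurod6, a transcription factor of forebrain neurons, was at -1.71, and was called without wildtype replicate 1, at -2.54 (limma adjusted p = 0.0181). The mean of the brain list varied from 5.90 to 6.99 among the wildtype arrays alone.

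The remaining genes of cyclic GMP signalling and of the families to which the set belongs were counted next. Over 7 lists, 71 genes other than the set had a value; 4 fell and 0 rose, where 1.90% and 0.144% of all clusters did, and the median was -0.02 against -0.04 over all clusters. The 4 were Vsnl1, Pde7b, Pde8a and Car11.

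Among the guanylyl cyclases, 7 of 9 listed genes were measured and 0 were called (limma; 0 had an unadjusted p under 0.05). Their differences lay between -0.08 for Npr2, the receptor of C-type natriuretic peptide, and 0.13 for Gucy1a1, the main alpha subunit of soluble guanylyl cyclase. Gucy1b1, the common beta subunit and nearest relative of Gucy1b2, was at 0.01, and the retinal cyclases Gucy2e and Gucy2f were at -0.01 and 0.03. Gucy1b2 at -0.69 thus lay outside the range of the other 7. Of these, Gucy2e, Gucy2f and Gucy2g were dimmer than Gucy1b2, at the 18.4th, 6.4th and 14.3rd percentile, and the rest were brighter. Whether a fall could be seen at such low signals was not tested.

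Of the ligands and regulators of these cyclases 11 of 12 were measured and 1 fell. Vsnl1, a calcium sensor that can regulate guanylyl cyclases, read 8.40, 8.35 and 8.55 in wildtype arrays and 7.36, 7.08 and 7.42 in those labelled knockout. The groups were apart by almost 1 on the log2 scale, and the fall was 1.15 (SE 0.12; limma adjusted p = 0.00691). Guca2a and Guca2b, the guanylin and uroguanylin that activate Gucy2d, were at 0.10 and 0.05, and Hpca, a neuronal calcium sensor, was at -0.15 (adjusted p = 0.732).

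Downstream of cyclic GMP, the kinases Prkg1 and Prkg2 were at 0.05 and 0.02, and 0 of 4 effectors were called (limma; 0 had an unadjusted p under 0.05). Of the other cyclic nucleotide-gated channel subunits 3 of 5 were measured. They were Cnga2, Cngb1 and the cone subunit Cngb3, the usual partner of Cnga3, which was at 0.01 and had a mean signal of 3.51.

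Phosphodiesterases had 21 of 23 genes measured, with a median of -0.04, and 2 fell. Negative values were found for 14 of them, but for 7 when the clusters were quantile normalized again. Pde7b, which degrades cyclic AMP, read 9.80, 9.54 and 9.69 in wildtype arrays and 8.86, 8.85 and 8.78 in those labelled knockout, a fall of 0.85 (SE 0.09; limma adjusted p = 0.00807). Pde8a, another cyclic AMP enzyme, read 8.77, 8.74 and 9.03 against 8.10, 8.07 and 8.03, a fall of 0.78 (SE 0.10; limma adjusted p = 0.0145). In both genes the 3 knockout arrays were close together and well below every wildtype array. The cyclic GMP enzyme Pde9a was at -0.06 and was not called. Pde8a lost its call without knockout replicate 1 (adjusted p = 0.0628), knockout replicate 2 (0.0573) or knockout replicate 3 (0.0719).

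Carbonic anhydrases had 14 of 15 genes measured besides Car2, with 7 negative and 7 positive (5 and 9 when quantile normalized again). Car3, the muscle and fat enzyme, was at 0.54 and was called only without wildtype replicate 2 (0.83, limma adjusted p = 0.0449). Car11, a relative that lacks enzyme activity, read 8.15, 8.23 and 8.19 in wildtype arrays and 7.56, 7.34 and 7.44 in those labelled knockout. It fell by 0.74 (SE 0.09; limma adjusted p = 0.0102), and the adjusted p was 0.0536 without knockout replicate 3. Car2 at -0.23 lay between Car11 and Car9, the membrane enzyme induced by low oxygen, at -0.19.

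The Ms4a genes, whose proteins are the chemoreceptors of necklace neurons and occur on immune cells as well, were measured for 11 of 18. None was called (limma; 0 had an unadjusted p under 0.05), and their differences lay between -0.15 for Ms4a6d and 0.08 for Ms4a6b, with Ms4a4d at -0.13. The mean over the 11 was 4.59 to 4.75 in wildtype arrays and 4.601 to 4.676 in those labelled knockout, and the groups overlapped. Of the 11, 7 were negative, but 1 when the clusters were quantile normalized again. The brightest were Ms4a6c and Ms4a6b, at the 53.0th and 40.1st percentile, and Ms4a4b was dimmest, with an average of 2.46. Whether a change could be seen in the dim ones was not tested. Trpc2, the channel of the Gucy1b2 neurons, was not analysed here. The G proteins Gnao1 and Gnai2, shared by many neurons, were at -0.28 (from -0.51 to -0.14 with 1 array left out) and 0.13.

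**Figure D4:**
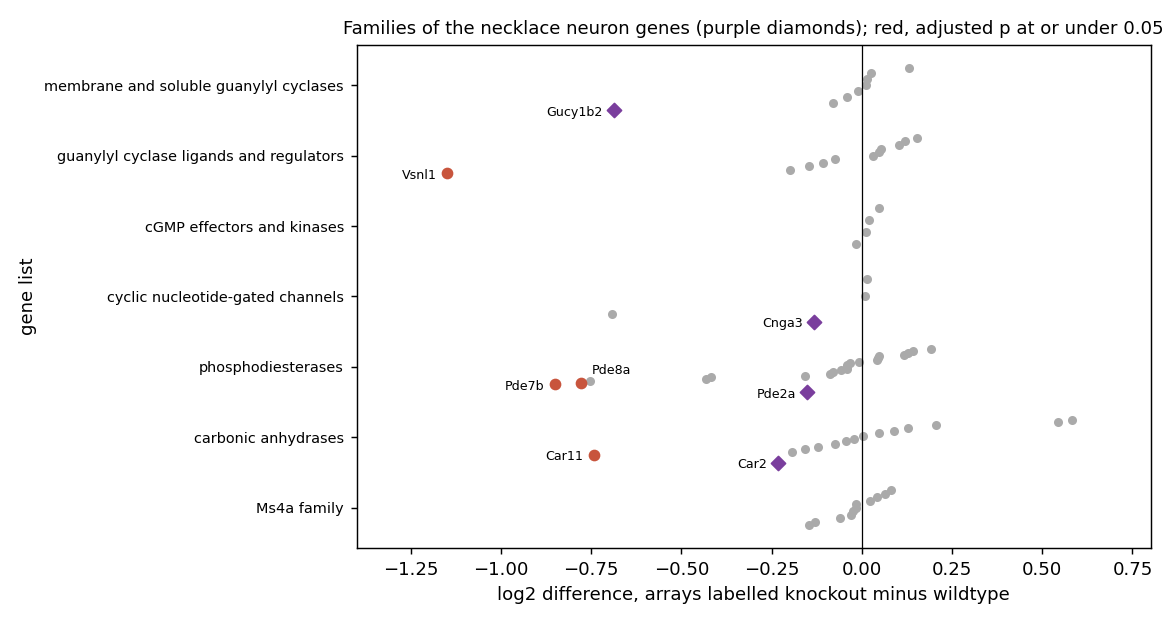
Log2 differences between the arrays labelled knockout and the wildtype arrays (x axis) for 7 gene lists (y axis); points are genes, red those with an adjusted p at or under 0.05, and purple diamonds the genes of the set beside their own family. Gucy1b2 lies to the left of all 7 other cyclases, and Pde2a and Car2 lie within the spread of their families.

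The genes whose profile over the 6 arrays was most like that of each member were found by Pearson's r over all single-gene clusters. They were Olfr1368 (r = 0.996) and Adamts7 (0.994) for Gucy1b2, Rad9b (0.996) and Lmbr1l (0.992) for Pde2a, Olfr862 (0.989) and Olfr474 (0.989) for Cnga3, and Fam181b (0.996) and Ost4 (0.991) for Car2. The differences of these genes ranged widely: the odorant receptor Olfr1368 fell by 2.54 (limma adjusted p = 0.0381), while Adamts7 differed by -0.07. These are the highest of very many values, over 6 arrays of 2 genotypes, and they are given as a description.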

How the data were processed

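Biotin-labelled RNA was hybridised to Affymetrix Mouse Exon 1.0 ST arrays, per the labels. The deposited values are log2 signals; per the submitters' processing notes the authors used Affymetrix Expression Console and RMA, and the sources used here give no versions and no build. RMA equalises array distributions and summarises a gene over all its exons, which hides changes of single exons.

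Of 23238 probe sets, the 16661 in the annotated numbering range were tested with limma 3.58.1 in R 4.3.3 (lmFit, eBayes, two-sided). Names came from the platform annotation (14939 clusters with 1 gene, 989 with several, 733 with none, the last 2 kinds unnamed), and 14884 matched GRCm38.p6 by Entrez identifier. Where several clusters named a gene, the brightest stood for it. Per-array contrasts used exact permutation tests and 95% intervals from the spread of 3 and 3 arrays. The fit was tested on simulated data. Arrays correlated at 0.975 to 0.991.

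Members and lists were chosen with earlier results of these data known. Named are the members, their counterparts, the called genes of each list or else the 2 with the smallest p, Emx2, Eif2s3y and the genes of most similar profile; others were named after their values were seen. Deviations of same-numbered arrays correlated at 0.01, 0.05 and -0.17, which gave no sign that numbers pair arrays but cannot exclude it. Alternatives were other scalings, a filter at the 25th percentile, all probe sets, robust estimation, an intensity trend, weighted arrays, the replicate block, a Y-linked covariate and each array left out. Plots used matplotlib 3.10.9.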

Additional observations from a re-analysis of the deposited data

How the results depend on the processing

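No alternative called any of the 4 genes. Gucy1b2 and Cnga3 fell outside the filter at the 25th percentile and have no value under it. The sign of Cnga3 turned to 0.043 with quantile normalization again. Gucy1b2 minus the marker mean turned to 0.051 with quantile normalization again and to 0.16 against Omp alone, and ranged from -0.16 to 0.12 with 1 array left out. Pde2a minus Pde1c (-0.24 to -0.08 with 1 array left out) was 0.28 with Pde4a as counterpart; Cnga4 was not run. The count of clusters lower was 316, and it was 109 under the filter, 144 with all probe sets, 168 with the replicate block, 186 with the Y-linked covariate and 145 to 224 with 1 array left out. It was larger under some alternatives, with 337 under an intensity trend and 362 at the highest. The count of clusters higher was 24; it ranged from 13 to 23 with 1 array left out and from 16 with the replicate block to 32 with quantile normalization again over the other alternatives. Whether the replicate numbers pair the arrays is not known. With the replicate block Gucy1b2 had a limma adjusted p of 0.122. Under this block Pde8a (0.0736), Car11 (0.0690), Ano2 (0.0668), Rtp2 (0.116), Umodl1 (0.0803) and Dcstamp (0.115) lost their calls. So did Rtp2 (0.071), Umodl1 (0.052), Dcstamp (0.111) and Gad2 (0.0599) with all probe sets, Dcstamp (0.068) with an intensity trend, and Rtp2 (0.0763), Dcstamp (0.111) and Gad2 (0.0546) with the Y-linked covariate.

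Small uncalled values changed sign in places. Pde1c was 0.029 with median centring, 0.030 with quantile normalization again, 0.019 with array weights and 0.016 with the Y-linked covariate; Ms4a4d was 0.091 and Kel 0.093 with quantile normalization again; and Prkg2 was -0.033 with array weights or the Y-linked covariate. With 1 array left out, Pde1c ranged from -0.056 to 0.036, Prkg1 from -0.10 to 0.20, Prkg2 from -0.056 to 0.092, Cngb1 from -0.057 to 0.14, Alas2 from -0.066 to 0.39, Il25 from -0.011 to 0.11 and Emx2 from -0.11 to 0.0027. Their cause was not tested. Calls with 1 array left out also changed for Rtp2 (kept in 2 of 6), Umodl1 (kept in 1), Muc2 (called without wildtype replicate 1, adjusted p = 0.0467) and Ibsp (called without wildtype replicate 2, adjusted p = 0.0299). The number of arrays limits the precision.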
